A study of Rattus norvegicus with 6 samples.

Results

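The genes Cemip2, Mylk3, Lhfpl2 and Reln were examined in rat renal cortex after dosing with 2-amino-4-nitrophenol, an aromatic amine with a nitro group that serves as a hair dye ingredient. They lie on 4 different chromosomes and share no pathway, and they were chosen because their signal had been seen to be lower in the dosed rats of this same series. The differences between dosed and control rats below are therefore a description and carry no test. Of 15284 genes named on the array, these are 4, and of 61657 non-control probes, 10 carry a RefSeq accession of one of them: 2 for Cemip2 (also called Tmem2), 1 for Mylk3, 4 for Lhfpl2 and 3 for Reln.

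The study used 6 male Sprague-Dawley (Crl:CD(SD)) rats, 5 weeks old at purchase, with no genetic change named for either group. In the 2-Amino-4-nitrophenol group, 3 rats received the compound at 750 mg/kg/day for 4 weeks. In the Corn Oil group, 3 rats received corn oil for 4 weeks. Total renal cortex RNA of each rat was labelled with Cy3 and hybridised to 1 single-colour Agilent array.

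Cemip2 is a transmembrane protein of the cell surface, linked in mouse and human to the breakdown of hyaluronan, a large matrix polysaccharide that in the kidney is most abundant in the medulla and sparse in healthy cortex. Reln encodes reelin, a large secreted glycoprotein known above all from the brain, where it binds the receptors encoded by Vldlr and Lrp8 and acts through the adaptor encoded by Dab1 to position migrating neurons. Lhfpl2 belongs to the LHFPL family of membrane proteins that span the membrane 4 times, and in mouse it has been linked to development of the reproductive tract. Mylk3 encodes the cardiac myosin light chain kinase, which phosphorylates the regulatory light chain of myosin in heart muscle.

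Promoter windows from RefSeq (build GRCr8) were available for Mylk3, Lhfpl2 and Reln, 3 of the 4 genes, and are shown so that the start regions of genes with lower signal can be compared. Each runs from 250 bases before to 50 bases after an annotated transcript start, 5′ to 3′ on the + strand. Capitals mark every match, on either strand, to 7 short motifs: the antioxidant response element core TGACNNNGC, the xenobiotic response element core GCGTG, the AP-1 site TGANTCA, the TATA box TATAAA, the CCAAT box CCAAT, the GC box GGGCGG and the E-box CACGTG.
Mylk3, chr19:37881745-37882044: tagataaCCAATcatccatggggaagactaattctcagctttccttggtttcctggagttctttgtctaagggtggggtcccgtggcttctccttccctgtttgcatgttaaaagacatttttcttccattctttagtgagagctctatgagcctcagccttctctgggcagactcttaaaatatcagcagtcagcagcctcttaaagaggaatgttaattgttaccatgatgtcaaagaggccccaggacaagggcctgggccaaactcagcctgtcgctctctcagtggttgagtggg
Lhfpl2, chr2:27080835-27081134: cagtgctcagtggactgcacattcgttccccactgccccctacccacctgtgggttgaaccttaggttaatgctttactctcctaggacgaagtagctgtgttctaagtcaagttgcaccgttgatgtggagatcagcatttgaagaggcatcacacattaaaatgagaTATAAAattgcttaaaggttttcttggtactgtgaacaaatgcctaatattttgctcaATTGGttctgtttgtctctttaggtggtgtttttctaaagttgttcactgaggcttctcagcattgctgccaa
Reln, chr4:13628318-13628617: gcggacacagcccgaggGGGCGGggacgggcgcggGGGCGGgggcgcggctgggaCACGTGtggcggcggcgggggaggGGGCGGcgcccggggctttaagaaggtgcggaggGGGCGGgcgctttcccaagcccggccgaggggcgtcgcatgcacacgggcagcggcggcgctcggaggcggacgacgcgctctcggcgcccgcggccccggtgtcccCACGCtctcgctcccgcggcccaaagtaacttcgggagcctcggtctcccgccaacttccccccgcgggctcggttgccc

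The 3 windows differ widely in base composition. That of Reln is 79.0% G or C with 47 CpG pairs, against medians of 51.7% and 7 over the 33469 rat windows of this length, and 98.8% of those windows have a lower G and C content. The windows of Mylk3 and Lhfpl2 hold 47.3% and 42.7% G or C, with 2 and 3 CpG pairs, and both lie inside the annotated span of their gene, at an internal transcript start. Reln has 4 GC boxes (33.1% of all windows hold at least 1), 1 E-box (6.42%) and 1 xenobiotic response element core (29.7%). Lhfpl2 has 1 TATA box (14.2%) and 1 CCAAT box on the opposite strand (37.5%), and Mylk3 has 1 CCAAT box. None of the 3 windows holds the antioxidant response element core (12.1% of all windows) or the AP-1 site (7.33%), no motif is found in all 3 windows, and no matches overlap one another.

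Signal is given as log2 of the processed intensity minus the 75th percentile of its array, so that 0 is the intensity which 75% of the non-control probes do not exceed. These values compare arrays for 1 probe and give no order of abundance between genes. Before scaling, the 75th percentile was 564 to 685 on the treated arrays, against 743 to 852 in the corn oil group. The share of probes well above background was 61.6% to 66.3% in the treated and 68.1% to 70.9% in the corn oil group. No probe was saturated. A single slide carried the 3 treated arrays in its second row and corn oil replicates 1 and 3 in its first row. Corn oil replicate 2 lay alone on another slide, in the second row. The authors' value table holds, under each sample, the values of the scanner file of another replicate of the same group, so replicate numbers here follow the scanner files and group means are unaffected. In whole tissue, fewer cells of a type and less RNA per cell cannot be told apart.

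All 10 probes had a lower mean in the treated group, and for 9 of the 10 every treated array lay below every corn oil array. Over all 40894 probes kept for comparison, 12.9% had treated arrays wholly below the corn oil arrays and 17.1% wholly above. As the genes were chosen on this contrast, nothing is read from the members' count. All 10 passed the filter on dim probes, but 2 of the 4 Lhfpl2 probes passed it through the corn oil arrays alone, and the other 8 probes were well above background on all 6 arrays.

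**Figure D1:**
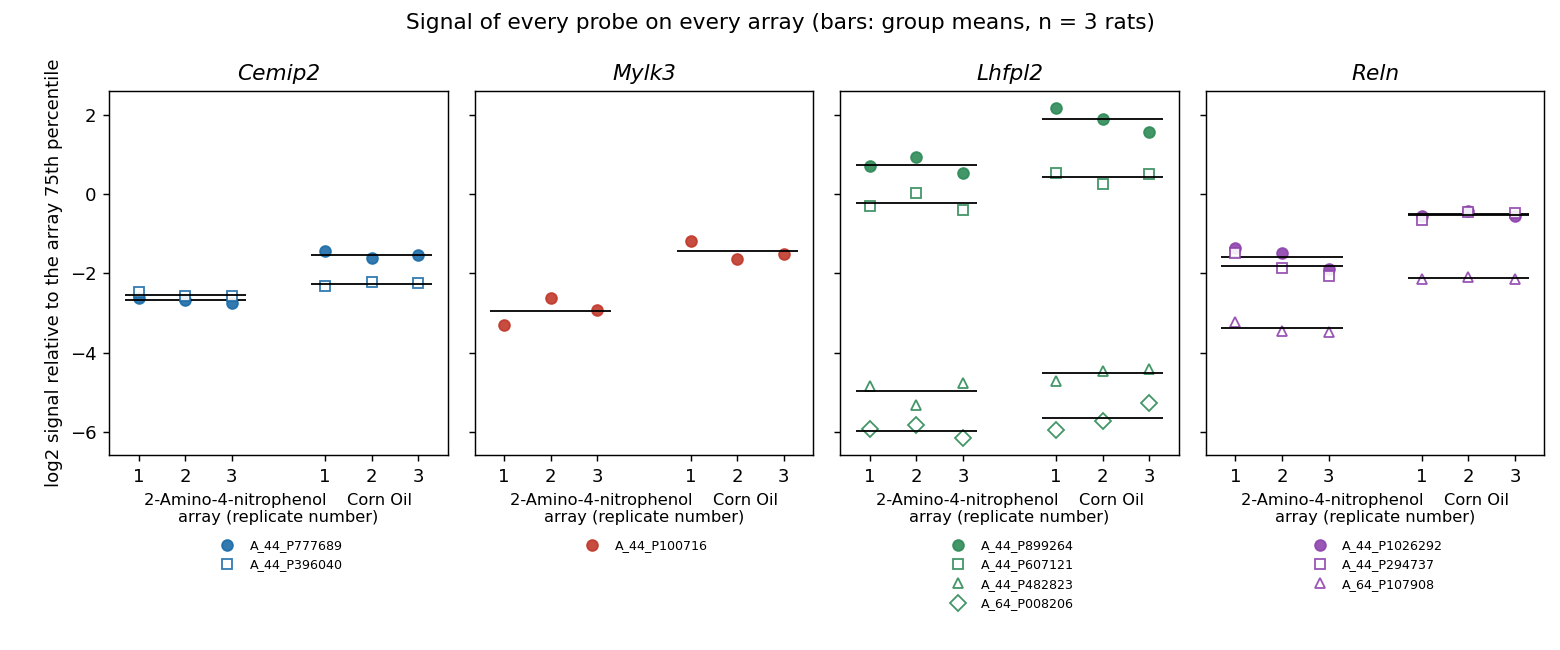
Log2 signal relative to the array's 75th percentile (vertical axis) of each probe on each array (horizontal axis, replicate number, 2-Amino-4-nitrophenol arrays left of Corn Oil arrays), with 1 panel per gene. Filled symbols are the brightest probe of a gene, open symbols its other probes, and bars are group means (n = 3 rats); the groups are apart for 9 of the 10 probes, and the dimmest Lhfpl2 probe is the exception.

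Cemip2, the surface protein linked to hyaluronan breakdown, was lower on every treated array by its brighter probe (A_44_P777689). Treated replicates 1, 2 and 3 had -2.62, -2.66 and -2.76, against -1.44, -1.62 and -1.55 in corn oil replicates 1, 2 and 3. The groups lay 1.00 apart on the log2 scale at their nearest arrays, while the range within a group was 0.14 in the treated and 0.18 in the corn oil rats. The means were -2.68 ± 0.07 in treated and -1.54 ± 0.09 in corn oil cortex (SD, n = 3 each), a difference of -1.14, or 45.2% of the corn oil level. As unscaled processed intensity this was 111, 89.0 and 92.5 on the treated arrays, against 313, 241 and 271 on the corn oil arrays.

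The second Cemip2 probe (A_44_P396040) gave a much smaller difference. It was dimmer than the first over all 6 arrays, but brighter on each treated array. Its values were -2.48, -2.56 and -2.57 on the treated arrays, against -2.32, -2.21 and -2.24 on the corn oil arrays. The groups again did not overlap, but the nearest arrays were 0.15 apart and the difference of means was -0.28, or 82.6% of the corn oil level. Both probes carry the same RefSeq accession, and both were well above background on all 6 arrays, with treated signals at least 5.27 times (brighter probe) and 5.66 times (second probe) the lowest well-above-background signal of the same array. Their log2 differences were 0.87 apart, and of the 4174 genes with exactly 2 kept probes 1.58% had probes farther apart (median 0.13). The size of the Cemip2 difference thus rested on which probe was read, while its direction did not. For the second probe the difference shrank to -0.08 after normexp background correction.

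Reln, the secreted ligand, was lower by all 3 of its probes, and their sizes were close. Its brightest probe (A_44_P1026292) had -1.35, -1.50 and -1.88 in treated rats 1, 2 and 3, against -0.56, -0.42 and -0.55 in corn oil rats 1, 2 and 3. The means were -1.58 ± 0.28 in treated and -0.51 ± 0.08 in corn oil cortex (SD, n = 3 each), a difference of -1.07 or 47.7% of the corn oil level. Treated arrays were more spread than corn oil arrays, with ranges of 0.53 and 0.14, and replicate 3 was the lowest.

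The second Reln probe (A_44_P294737) had -1.49, -1.86 and -2.05 on the treated arrays, against -0.66, -0.45 and -0.48 on the corn oil arrays. The dimmest one (A_64_P107908) had -3.23, -3.45 and -3.48 on the treated arrays, against -2.15, -2.09 and -2.13 on the corn oil arrays. Their differences were -1.27 and -1.26, and in each the treated arrays kept the same order, with replicate 1 highest and replicate 3 lowest. The 3 probes spanned 0.21 in their differences, and 51.1% of the 1427 genes with exactly 3 kept probes spanned more. Of the 3 genes with several probes, Reln was the one whose probes all lay past a 2-fold difference. After normexp background correction all 3 fell short of it, at -0.88 for the brightest, -0.99 for the second and -0.67 for the dimmest probe.

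Lhfpl2, the 4-span membrane protein, was lower by its bright probes, and its dim probes carried little signal. The brightest (A_44_P899264) had 0.70, 0.94 and 0.53 in treated rats 1, 2 and 3, against 2.18, 1.90 and 1.56 in corn oil rats 1, 2 and 3. The means were 0.72 ± 0.20 in treated and 1.88 ± 0.31 in corn oil cortex (SD, n = 3 each), a difference of -1.16 or 44.8% of the corn oil level. Its unscaled intensity was 904 to 1111 on the treated arrays, against 2336 to 3864 on the corn oil arrays, far above background in both groups. The nearest arrays of the groups, treated replicate 2 and corn oil replicate 3, were 0.62 apart.

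The next Lhfpl2 probe (A_44_P607121) had -0.29, 0.02 and -0.41 on the treated arrays, against 0.54, 0.25 and 0.51 on the corn oil arrays. The groups did not overlap, and the difference of means was -0.66, or 63.2% of the corn oil level. Another probe (A_44_P482823), well above background on 2 of the 3 treated arrays, had -4.85, -5.33 and -4.76 on the treated arrays, against -4.71, -4.45 and -4.41 on the corn oil arrays. Here the groups were 0.05 apart at their nearest, less than the range within either group. The dimmest probe (A_64_P008206) was not well above background on any treated array, with -5.91, -5.83 and -6.16 there, against -5.95, -5.72 and -5.26 on the corn oil arrays. Its groups overlapped, and no fold is given for it because its corn oil mean does not exceed the detection limit of the treated arrays. After normexp background correction both dim probes had a difference above 0, at 0.10 and 0.14. The bright pair of probes did not change direction under any processing tried, but differed in size, at -1.16 and -0.66. The 4 probes spanned 0.83 in their differences. Of the 342 genes with exactly 4 kept probes 3.80% spanned more (median 0.28).

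Mylk3, the cardiac myosin light chain kinase, had a larger difference than the other members by their brightest probes, except after normexp correction (-0.98, against -1.14 for Lhfpl2), but only 1 probe (A_44_P100716). Treated replicates 1, 2 and 3 had -3.30, -2.63 and -2.93, against -1.18, -1.64 and -1.51 in corn oil replicates 1, 2 and 3. The means were -2.95 ± 0.34 in treated and -1.44 ± 0.24 in corn oil cortex (SD, n = 3 each), a difference of -1.51 or 35.1% of the corn oil level. The groups were 0.99 apart at their nearest arrays, treated replicate 2 and corn oil replicate 2, and the treated arrays ranged over 0.67. Unlike Cemip2 and Reln, Mylk3 was lowest on treated replicate 1. Treated replicate 3 was the lowest array for 8 of the 10 probes, and replicates 1 and 2 each for 1.

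By their brightest probes all 4 genes were past a 2-fold difference, as were 103 (0.877%) of the 11748 tested genes. In order of size the differences ranked 32 (Mylk3), 71 (Lhfpl2), 76 (Cemip2) and 91 (Reln) among the lower genes. The place of Cemip2 rested on a probe that was its brightest only through the corn oil arrays. Its second probe, brighter on each treated array, gave -0.28. The genes differed in how much the rats of a group varied. The pooled within-group SD was 0.08 for Cemip2, 0.20 for Reln, 0.26 for Lhfpl2 and 0.29 for Mylk3, and 16.0%, 66.2%, 78.0% and 81.2% of tested genes had a smaller one (median 0.15). Mean signal was in the lower part of the array for Mylk3, Cemip2 and Reln, with 25.3%, 26.0% and 36.0% of genes dimmer, and higher for Lhfpl2, with 63.1% dimmer. Among genes within 0.5 log2 units of the same mean signal, the median log2 change was -0.04 for those near Cemip2, -0.04 near Mylk3, 0.06 near Lhfpl2 and -0.03 near Reln.

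**Figure D2:**
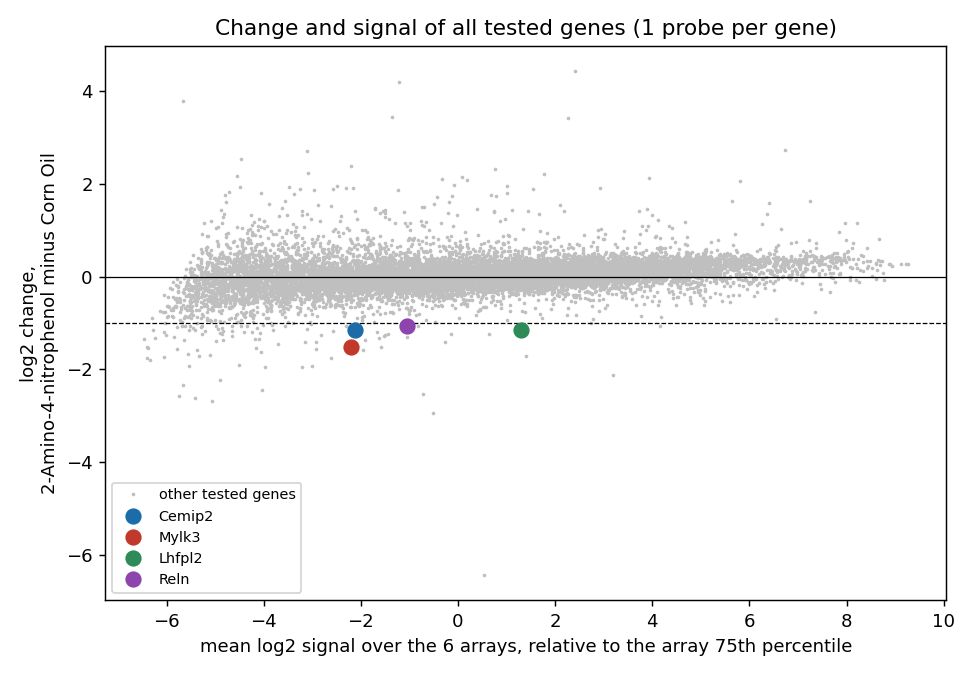
Log2 change (2-Amino-4-nitrophenol minus Corn Oil, vertical axis) against mean log2 signal over the 6 arrays (horizontal axis) for 11748 tested genes, each a grey point by its brightest kept probe. The 4 genes are coloured and lie below the dashed line, which marks a 2-fold lower signal; 103 genes lie at or below it.

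Corn oil replicate 2, which shared the array row of the treated arrays but not their slide, lay with the other corn oil arrays for each of the brightest probes. As the genes were chosen on this contrast, that placing carries no test of array position. On the shared slide, array row and dosing cannot be told apart. Within the slide that held both groups, which leaves out that array, the differences were -1.19 for Cemip2, -1.61 for Mylk3, -1.15 for Lhfpl2 and -1.02 for Reln. Leaving out any 1 array kept each of these differences between -1.67 (Mylk3 without treated replicate 2) and -0.91 (Reln without treated replicate 3). Scaling on spike-in controls, which moved the median change of all genes to -0.28 from 0.04, made the 4 differences larger (-1.39 to -1.83). Background correction by normexp left all 4 below 0, at -0.76 for Cemip2, -0.98 for Mylk3, -1.14 for Lhfpl2 and -0.88 for Reln. Averaging a gene's probes gave -0.71 for Cemip2 and -0.65 for Lhfpl2, against -1.20 for Reln.

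**Figure D3:**
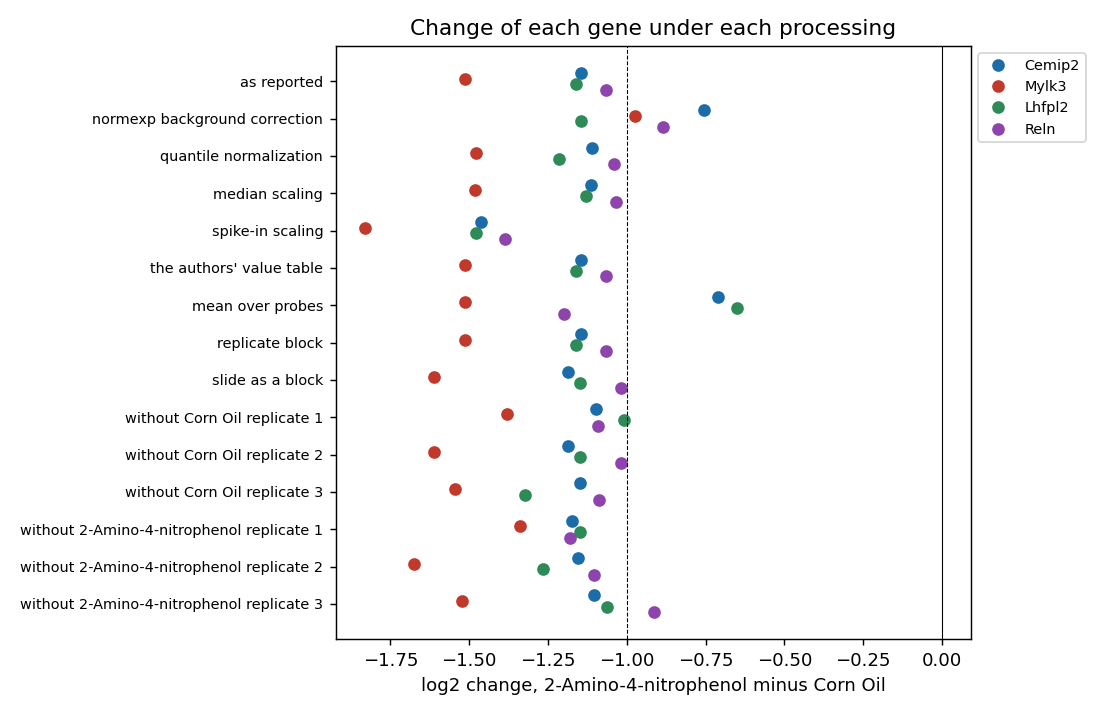
Log2 change of the 4 genes (horizontal axis, 2-Amino-4-nitrophenol minus Corn Oil) under each way of processing the arrays (vertical axis). Every point lies below 0, and the points nearest 0 are Cemip2 and Lhfpl2 after averaging over probes (-0.71 and -0.65) and Cemip2 after normexp correction (-0.76).

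The other genes of the 4 pathways and families were listed by their known function, and they were tested in the fit across all genes. Of 82 listed genes, 56 had a tested probe. In limma, 0 of the 56 passed at an adjusted p under 0.05, as against 3 of all 11748 genes (0.0255%), and 12 had an unadjusted p under 0.05, 3 lower and 9 higher, where the whole array had 7.29% lower and 14.3% higher. The split depended on scaling: quantile normalization gave 4 lower and 6 higher, and spike-in scaling gave 14 lower and 0 higher. The count was 7 without corn oil replicate 1, 6 without corn oil replicate 2, 26 without treated replicate 1 and 4 without treated replicate 3.

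Among hyaluronan genes 11 of 22 were tested, and their median log2 change was -0.05, against 0.04 over all genes. At an unadjusted p under 0.05, 1 was lower and 1 higher (4 and 0 with spike-in scaling, 0 and 0 with quantile normalization), and 0 passed after adjustment in limma. Leaving out 1 array moved the counts between 2 lower and 1 higher (treated replicate 1) and 0 and 0 (treated replicate 3 or corn oil replicate 2), with 0 and 2 for corn oil replicate 3. Ugdh, which makes the UDP-glucuronate used in hyaluronan synthesis, had 3.38, 2.77 and 3.24 on the treated arrays, against 2.62, 2.59 and 2.84 on the corn oil arrays. Its groups overlapped, and the log2 change was 0.45 ± 0.18 (SE, adjusted p = 0.217 in limma), and 0.13 after spike-in scaling. Hyal3, of the hyaluronidase family, had -0.68, -1.12 and -1.01 on the treated arrays, against -0.65, -0.42 and -0.65 on the corn oil arrays, a change of -0.37 (SE 0.14, adjusted p = 0.209 in limma) by 1 probe and -0.05 by its other. The hyaluronan receptor Cd44 had a change of -0.04 (SE 0.13), and its 3 probes ran from -0.22 to 0.59, so that averaging them turned the sign. The synthase gene Has2 had no array well above background, and the paralog Cemip had no probe named here.

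Among reelin signalling genes 19 of 27 were tested, with a median change of -0.09. At an unadjusted p under 0.05, 2 were lower and 3 higher, and 0 passed after adjustment in limma. The counts were 7 and 0 with spike-in scaling, and 0 and 3 with normexp correction, median scaling or no filter on dim probes. They were 5 and 4 without treated replicate 1, 0 and 0 without treated replicate 3, and 0 and 2 without corn oil replicate 1 or 2. The receptor Vldlr had -2.57, -2.74 and -2.65 on the treated arrays, against -2.25, -2.45 and -2.51 on the corn oil arrays, groups that did not overlap. Its log2 change was -0.25 ± 0.10 (SE, adjusted p = 0.226 in limma), and -0.05 after normexp correction. The adaptor Dab1 ran the other way and was dim, with -4.76, -4.39 and -4.17 on the treated arrays, against -4.91, -4.72 and -5.24 on the corn oil arrays. Its change was 0.52 ± 0.20 (SE, adjusted p = 0.209 in limma), and 0.20 after spike-in scaling. Rnf7, a ubiquitin ligase subunit that acts in Dab1 turnover, had a change of 0.37 ± 0.11 (0.05 after spike-in scaling). The ephrin Efnb3 passed the filter on dim probes through the corn oil arrays alone, with 2 treated arrays well above background. Its change of -0.56 ± 0.23 was -0.02 after normexp correction and -0.32 without treated replicate 2. No probe named here stood for the receptor gene Lrp8.

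Among the LHFPL and PMP22 families of 4-span proteins 8 of 11 were tested, with a median change of 0.15 that was -0.17 after spike-in scaling. In limma 0 passed after adjustment and 0 had an unadjusted p under 0.05. Without treated replicate 1 the latter count was 3 higher and 0 lower, and after normexp correction 1 higher and 0 lower. Lhfpl6, the paralog fixed for display, had 0.19, 0.97 and 0.61 on the treated arrays, against 0.66, 0.49 and 0.56 on the corn oil arrays, with overlapping groups and a change of 0.02 ± 0.20 that turned to -0.30 after spike-in scaling and -0.17 without treated replicate 2.

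Among myosin light chain genes, which encode the kinases, phosphatase subunits and light chains around the substrate of Mylk3, 18 of 22 were tested. Their median change was 0.18, against 0.00 with quantile normalization and -0.14 with spike-in scaling. In limma 0 passed after adjustment, and at an unadjusted p under 0.05, 5 were higher and 0 lower, but after spike-in scaling 0 were higher and 3 lower, and with treated replicate 1 left out 9 were higher and 2 lower. Among the genes with an unadjusted p under 0.05 in limma, the essential light chains known from ventricle and atrium had the largest changes. Myl3 had -1.48, -1.33 and -1.63 on the treated arrays, against -2.06, -2.09 and -2.35 on the corn oil arrays, a change of 0.69 ± 0.12 (SE, adjusted p = 0.103 in limma). Myl4 had -2.14, -2.00 and -2.24 on the treated arrays, against -2.61, -2.69 and -2.94 on the corn oil arrays, a change of 0.62 ± 0.12 (adjusted p = 0.113 in limma). Both had groups that did not overlap, and their changes were smallest after spike-in scaling, at 0.37 for Myl3 and 0.30 for Myl4, where neither had an unadjusted p under 0.05. Mylk, the smooth muscle kinase, had 2.50, 2.62 and 2.69 on the treated arrays, against 2.92, 2.71 and 2.62 on the corn oil arrays (-0.15 ± 0.11), and Myl2, the cardiac regulatory light chain, had no array well above background.

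**Figure D4:**
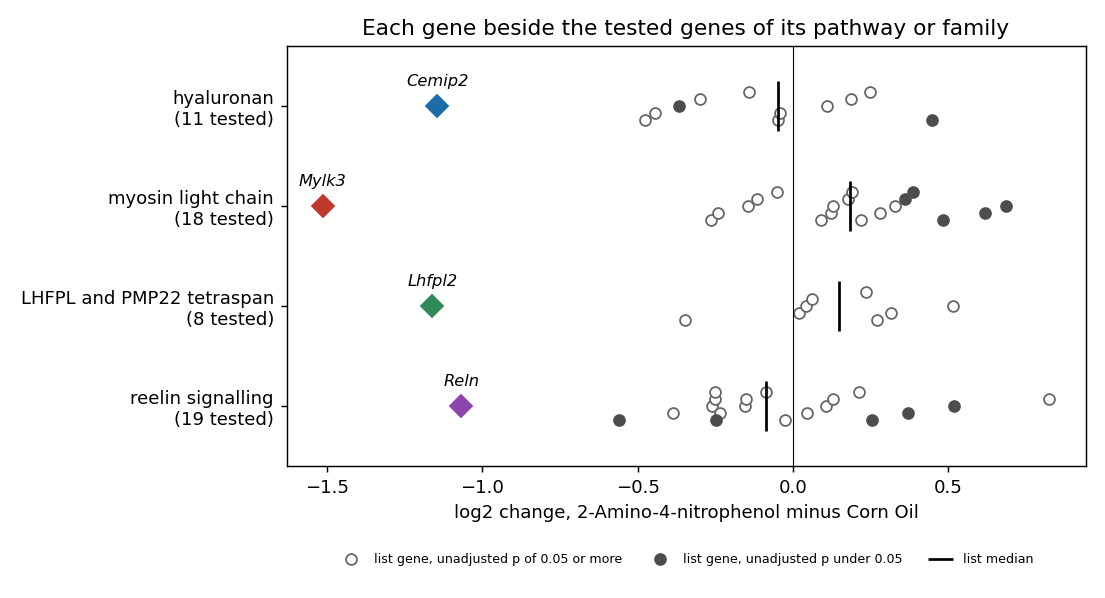
Log2 change (horizontal axis, 2-Amino-4-nitrophenol minus Corn Oil) of Cemip2, Mylk3, Lhfpl2 and Reln (diamonds) and of the tested genes of their pathway or family (circles, filled where the unadjusted p is under 0.05), with 1 row per list and its median as a vertical bar. The list medians lie between -0.09 and 0.18.

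On the RefSeq assembly the nearest tested gene on each side was taken for each of the 4 genes. Of these 8 neighbours 0 passed after adjustment in limma and 1 had an unadjusted p under 0.05. Over all tested genes the shares were 0.0255% and 21.6%, so nothing is read from the neighbours' count. The gene with that unadjusted p, Abhd17b beside Cemip2, encodes a protein depalmitoylase. It had -1.01, -1.18 and -1.02 on the treated arrays, against -0.51, -0.85 and -0.84 on the corn oil arrays, a change of -0.33 (SE 0.12, adjusted p = 0.198 in limma). On the other side of Cemip2, the transcription factor gene Klf9 had 0.08. Beside Lhfpl2, Arsb, which encodes the lysosomal arylsulfatase B, had -0.27 (SE 0.12, overlapping groups), and Scamp1 had 0.03. The neighbours of Reln, Orc5 and Psmc2, had -0.08 and 0.15, and those of Mylk3, C19h16orf87 and Orc6, had 0.00 and 0.11. After spike-in scaling all 8 were below 0, from -0.65 to -0.16.

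**Figure D5:**
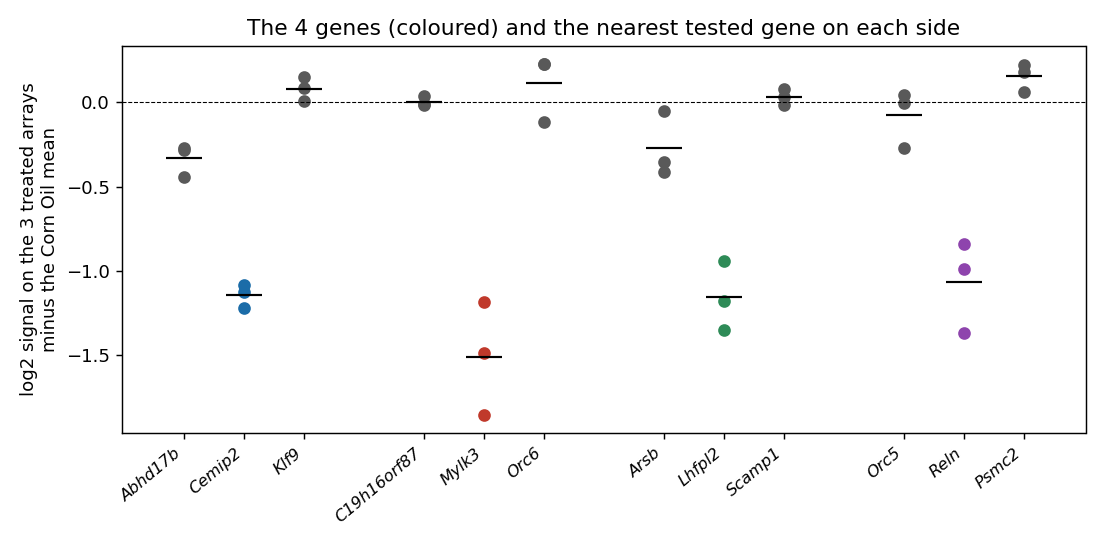
Log2 signal on each of the 3 treated arrays minus the Corn Oil mean (vertical axis) for each of the 4 genes (coloured) and the nearest tested gene on each side (grey, horizontal axis), with bars at the mean. The 8 neighbours have means between -0.33 and 0.15, and the 4 genes between -1.51 and -1.07.

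Genes with the most similar course over the 6 arrays were found by the root mean square difference between centred log2 values. Since this includes the contrast on which the genes were chosen, it is a description. Nearest to Cemip2 among genes well above background on all 6 arrays was Reln (0.16). The measure placed Ptprz1, a receptor tyrosine phosphatase gene, and Chrna2, a nicotinic receptor subunit gene, before it, but neither was well above background on a treated array, so their distances have no meaning beyond a bound. Their changes were -0.12 each after normexp correction, against -0.76 for Cemip2. Nearest to Reln were Cemip2 (0.16), the olfactory receptor gene Or13l2 (0.17) and Vnn1 (0.17), which encodes the pantetheinase vanin-1. Vnn1 had 3.91, 3.69 and 3.28 on the treated arrays, against 4.33, 5.04 and 4.72 on the corn oil arrays. Nearest to Lhfpl2 were the cation channel gene Trpm1 (0.18), Cemip2 (0.19) and Cntnap4 (0.20), and nearest to Mylk3 were Trpm1 (0.25), Lhfpl2 (0.28) and the dynamin gene Dnm3 (0.28). Trpm1 was well above background on 1 of the 3 treated arrays, and its change of -1.07 was -0.10 after normexp correction. Among genes well above background on all 6 arrays, Cemip2 was nearest to Lhfpl2, and Lhfpl2 was nearest to Mylk3. Mylk3 and Reln were the least alike pair of the 4, at 0.40.

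The tissue label was checked against marker genes. All 8 proximal tubule markers, which stand for the main cell type of renal cortex, were tested, and their summed level (linear signal over the 75th percentile) was 1674 to 1904 on the treated arrays, against 1617 to 1689 on the corn oil arrays. Of them 3 were lower at an unadjusted p under 0.05, but 1 was when corn oil replicate 2, corn oil replicate 3 or treated replicate 3 was left out. With treated replicate 1 left out 3 were lower and 2 higher. Quantile normalization gave 5 lower and 0 higher, and spike-in scaling gave 4 lower and 0 higher. Over all genes 7.29% were lower and 14.3% higher at that p. Of 7 tested endothelial markers 2 were lower and 0 higher (1 and 0 when corn oil replicate 1 or 2 or treated replicate 2 was left out, 1 and 1 when treated replicate 1 was), with summed levels of 34.5 to 35.1 in treated and 34.6 to 36.6 in corn oil cortex. Of 8 collecting duct markers 3 were lower and 0 higher, with summed levels of 187 to 249 in treated and 223 to 244 in corn oil cortex. Leaving out treated replicate 3 gave 1 lower and 1 higher, as did leaving out corn oil replicate 2. The counts were 1 and 0 with corn oil replicate 3 left out, 2 and 0 with treated replicate 1 left out, and 2 and 1 with treated replicate 2 left out. Of 5 erythroid markers 4 were higher, but 1 after spike-in scaling, with summed levels of 705 to 960 in treated and 391 to 563 in corn oil cortex. Of 4 tested thick ascending limb markers 1 was higher and 0 lower (0 higher and 2 lower after spike-in scaling). Their summed levels were 380 to 477 in treated and 296 to 328 in corn oil cortex. Of 4 tested distal convoluted and connecting tubule markers 1 was lower and 0 higher. Of 8 tested striated muscle, 4 lymphatic endothelial and 9 fibroblast and mural cell markers, 0 had an unadjusted p under 0.05 in limma. The same held for 6 podocyte and 4 macrophage markers. After spike-in scaling 4 podocyte, 2 macrophage, 1 striated muscle and 1 fibroblast and mural cell marker were lower at that p, and 0 higher. With treated replicate 1 left out, 2 striated muscle markers were lower and 1 higher, and 2 fibroblast and mural cell markers were higher. Leaving it out also gave 1 podocyte marker lower and 1 macrophage marker higher. The lymphatic marker Prox1 had no array well above background. The part of cell makeup in the lower signal of the 4 genes was not tested.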

How the data were processed

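Per the file headers, the deposited intensity values were extracted with Agilent Feature Extraction 10.7.1.1 (10.7 in the submitters' processing notes) and are background-subtracted and detrended on a linear scale. The authors' value table holds a deposited ratio of each intensity to its array's 75th percentile. Genes were named through RefSeq accessions. The array header names build rn4, so only promoter windows, read from GRCr8, carry coordinates.

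Log2 intensity minus the array's 75th percentile was used. After removing 64 probes with an outlier flag, a probe was kept (40894) if every array of 1 group or the other called it well above background. Each gene was represented by its brightest kept probe (11748 genes), by mean signal over the arrays of both groups. That choice is not independent of the contrast. The comparison used limma 3.58.1 (lmFit and eBayes, R 4.3.3) without a block, with Benjamini-Hochberg adjustment over all genes and a threshold of 0.05. The fit was also run on simulated data whose SD per gene was capped at the median over genes. That run does not measure how the fit performs on these arrays. SE values are those of limma. Its p-values set the group difference against the spread between 3 rats per group, moderated over all genes. The number of arrays limits the precision.

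Members, gene lists and motifs were chosen with earlier results of these data known. All member probes are named. From each pathway list came the 2 highest and 2 lowest genes with an unadjusted p under 0.05 and 8 fixed genes, and for each member the 3 genes most like it. Myl2, Prox1 and the neighbours were chosen after values were seen. Alternatives were normexp (offset 50, on median signals), quantile, median and spike-in scaling (7 probes), the authors' table, other filters, the mean over probes, replicate and slide blocks, trend and robust eBayes, and leaving out each array.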

Additional observations from a re-analysis of the deposited data

How the results depend on the processing

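The 4 genes kept their direction, by the brightest probe or the mean over probes, under all 14 alternatives to the reported setting. As they were chosen on this contrast, that is a description and carries no test. The alternatives are also not independent. The replicate block and the authors' table cannot alter a difference of group means beyond rounding. The slide block equals leaving out corn oil replicate 2, and spike-in scaling shifts all genes alike. After spike-in scaling the log2 changes were -1.46 for Cemip2, -1.83 for Mylk3, -1.48 for Lhfpl2 and -1.39 for Reln. After normexp correction, whose offset of 50 compresses dim signals, they were -0.76 for Cemip2 and -0.98 for Mylk3, and with the mean over probes -0.71 for Cemip2 and -0.65 for Lhfpl2. The dim Lhfpl2 probes A_44_P482823 and A_64_P008206 reversed to 0.10 and 0.14 after normexp. Leaving out 1 array gave -1.19 to -1.10 for Cemip2, -1.67 to -1.34 for Mylk3, -1.32 to -1.01 for Lhfpl2 and -1.18 to -0.91 for Reln.

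In limma the count of all genes at an adjusted p under 0.05 was 3, and it was 56 after normexp, 9 after spike-in scaling and 69 with trend and robust eBayes. It was 0 with no filter on dim probes, with the mean over probes, with the replicate block and with the slide block (3496, 2443, 2121 and 1764 genes at an unadjusted p under 0.05). Leaving out 1 array gave 0 to 70: 0 when any corn oil array was left out, 21 without treated replicate 1, 70 without treated replicate 2 and 2 without treated replicate 3. The 12 pathway and family genes became 6 with the slide block and 4 to 26 without 1 array. The cause of these shifts was not tested.

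Same-numbered arrays did not deviate together (correlations of 0.0065, -0.050 and -0.032 over genes), so the numbers were not taken as pairs. With the replicate block the pathway and family count was 11. The changes of the 4 genes stayed at -1.14, -1.51, -1.16 and -1.07, which a balanced block cannot alter. Dim probes limit what can be read from Lhfpl2, whose dimmest probe was at the background on the treated arrays. Its bright probes also differed in size, at -1.16 and -0.66.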
